A study of Mus musculus with 6 samples.

Results

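The amino acid transporter families of the solute carrier (Slc) group were followed in fully grown mouse oocytes of XY and XX females. The members are the probe sets that the array's annotation assigns to 1 gene symbol starting with Slc1a, Slc3a, Slc6a, Slc7a, Slc36a, Slc38a or Slc43a. This rule found 125 probe sets of 63 gene symbols among 45037 probe sets. Of these, 58 probe sets of 37 genes reached the level needed for testing, which was the array's median or more on at least 3 of 6 arrays. The names are looser than the label: Slc7a6os, Slc6a19os and Slc36a1os are named for lying beside a transporter gene and are not carriers, and several Slc6a proteins move monoamines, creatine or osmolytes.

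Amino acids cross the plasma membrane through carriers that differ in substrate and in driving force. Slc1a and Slc6a carriers use the sodium gradient. Slc7a proteins are either cationic amino acid carriers that work alone or light chains that reach the surface only when bound to a Slc3a heavy chain. Slc38a carriers take up small neutral amino acids such as glutamine, Slc36a carriers use protons, and Slc43a carriers move large neutral amino acids without an ion gradient. In the mouse ovary the growing oocyte takes up some amino acids itself and receives others from granulosa cells through gap junctions, and in mouse oocytes and early embryos glycine also serves as an osmolyte that sets cell volume.

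The XY females were of B6.Y(TIR), in which a Tirano Y chromosome on the C57BL/6 background allows ovaries to form, and the XX females were their littermates. Both groups received 5 IU of equine chorionic gonadotropin at 25 to 29 days of age, and after 45 to 47 hours their oocytes were collected at the germinal vesicle stage, with the cumulus cells removed by pipette. There were 3 XY and 3 XX arrays, each labelled as a biological replicate and made from the RNA of 10 oocytes, and the labels tell of 3 females per genotype. No agent other than the gonadotropin is named. XO females and growing oocytes, which the protocols also mention, were not analysed here.

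Values below are log2(normalized intensity + 9) unless stated otherwise, and a change is the XY mean minus the XX mean on that scale with its SE. Levels are compared only within a probe set, since the brightness of a probe set depends on its probes. The XX arrays were not alike. Over 12442 genes XX 1 had a correlation of 0.967 with each of the other XX arrays, against up to 0.962 with an XY array. The 5′ control of Actb, a measure of how far labelled RNA extends, read 45.9 in XX 1, 184 in XX 2 and 188 in XX 3, against 54.7 to 62.7 in XY. Of 12 oocyte markers, such as the zona pellucida genes, all 12 were kept, with summed normalized intensities of 85480 to 88120 in XY and 89360 to 97720 in XX, and 1, the growth factor gene Bmp15, was lower in XY. Of 20 granulosa and cumulus markers, 11 were kept and 1, the inhibin subunit gene Inha, was higher in XY. Here and in each list the sum takes every marker with a probe set, kept or not. It was 1659 to 1783 in XY and 1447 to 1789 in XX. Nr5a2 made up much of it, at 721 to 800 in XY and 710 to 940 in XX. The median gene of the list read 41.8 in XY and 33.5 in XX. Of the other kept ones, Fshr changed by 0.89, Amhr2 by 0.55, Ptgs2 by 0.53, Hsd17b1 by 0.40 and Nppc by 0.19, with no call. Foxl2 changed by 0.11, Has2 by 0.06, Inhbb by -0.07, Nr5a2 by -0.16 and Kitl by -0.63, also with no call. The granulosa marker Amh, below the filter, read 2.64 to 5.65 in XY and 3.26 to 7.34 in XX. Of 11 theca and stroma markers 4 were kept. The sums over the 9 with a probe set did not overlap, at 495 to 629 in XY against 270 to 323 in XX. A large part was Dcn, which was not called and read 151 to 301 in XY against 20.65 to 90.8 in XX. Of 9 blood and immune markers 4 were kept and Cd68 was higher in XY, with sums of 348 to 449 in XY and 226 to 382 in XX. Of 7 surface epithelium markers 5 were kept and Krt8 was lower in XY. Krt8 read 13.4 to 21.6 in XY against 38.2 to 48.7 in XX. It was kept through the XX arrays alone, so that its groups had to differ. The sums of this list did not overlap, at 2439 to 2644 in XY against 2834 to 3292 in XX. Most of that sum was Cdh1, which was not called and read 2214 to 2354 in XY and 2588 to 2960 in XX. Of the other kept ones, Upk3b changed by -0.52, Lgr5 by 0.42 and Epcam by 0.18, with no call. Of 5 endothelial markers 4 were kept, with sums of 264 to 408 in XY and 215 to 389 in XX. No marker with a probe set read exactly 0 on any array. The part of RNA from other cells or of RNA quality in the differences below was not tested. The log2 ratio of the 3′ to the 5′ Actb control read 5.9, 5.2 and 5.6 on the XY arrays. XX 1 had a similar ratio of 5.5, whereas XX 2 had 3.9 and XX 3 had 4.0. Values given without XX 1 cannot test RNA quality, because the remaining groups do not overlap in this ratio. Values with the Actb ratio as a covariate depend on XX 1 to separate genotype from RNA quality. In such bulk samples, fewer transcripts per oocyte cannot be told apart from a change in the mix of oocytes.

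Of the 37 tested member genes, 4 were lower and 1 was higher in XY oocytes at limma's adjusted p of 0.05. Among all 12442 tested genes, 13.2% passed, 5.34% lower and 7.86% higher, so 5 calls among 37 genes, taken in either direction, is near the share of the whole array. The 4 lower genes were Slc7a2, Slc6a4, Slc7a11 and Slc6a20b, and the higher gene was Slc38a1. The XY and XX arrays of 13 of the 37 genes did not overlap, against 38.8% of all tested genes. At an unadjusted p under 0.05, 13 of the 37 passed, against 32.2% of all genes. The median change of the members was 0.12, beside 0.07 for all tested genes.

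By family, the calls lay in Slc7a with 2 of 11 tested genes lower, Slc6a with 2 of 11 lower and Slc38a with 1 of 7 higher. limma called 0 genes in Slc1a, Slc3a, Slc36a and Slc43a, which had 2 tested genes each; at an unadjusted p under 0.05, 1 passed in Slc1a, 1 in Slc3a, 0 in Slc36a and 0 in Slc43a. In Slc38a, 6 of 7 changes were positive, and 6 of 7 also lay above the median of all genes under quantile, deposited, median and trimmed mean scaling. Whether that family differs from other genes was not tested.

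**Figure D1:**
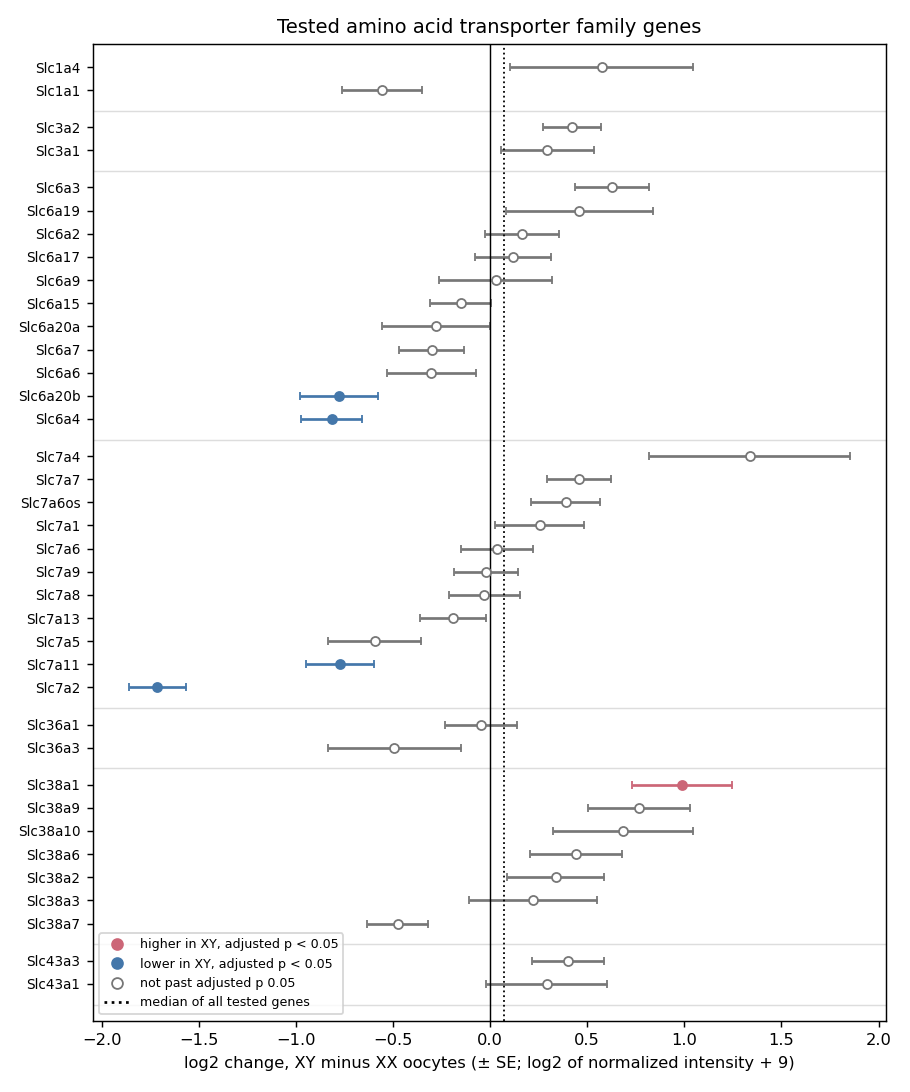
Change between XY and XX oocytes (log2 of normalized intensity + 9, XY minus XX, points with SE) for the 37 tested genes, grouped by family; the dotted line is the median of all 12442 tested genes. Slc7a2 lies farthest below 0 at -1.71, and Slc7a4, farthest above at 1.34, has the widest error.

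Among the members, the largest change past the threshold was that of Slc7a2 (chromosome 8), which encodes a cationic amino acid carrier for arginine, lysine and ornithine. Its brightest probe set read 8.74, 8.60 and 8.78 in XY 1, XY 2 and XY 3, against 10.30, 10.41 and 10.53 in XX 1, XX 2 and XX 3. All XY arrays lay below all XX arrays, and XX 1 sat with the other XX arrays. On the deposited linear scale the same probe set read 442, 296 and 355 in XY, against 1036, 1612 and 2031 in XX. The change was -1.71 ± 0.15 (SE, adjusted p = 0.00259), a 3.28-fold lower value in XY on the scale with the added 9.

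Slc7a2 has 4 kept probe sets, and each was tested in a fit over all 20268 kept probe sets with 1 symbol, of which 11.5% passed in either direction and 5.92% were lower. The 3 that reached the median on all 6 arrays were lower in XY, by -1.71 ± 0.15, -1.44 ± 0.20 and -1.72 ± 0.19 (limma's adjusted p from 0.00407 to 0.0104). In none of these 3 did the groups overlap. The dimmest read 3.59, 4.24 and 4.33 in XY, near the lowest value that the added 9 allows, against 5.87, 5.79 and 5.91 in XX. It was kept through the XX arrays alone, so that it had to differ, and its change of -1.80 ± 0.22 is given as a description only. With the Actb covariate, 0 of the member probe sets passed limma's threshold, these calls included, and 12 had an unadjusted p under 0.05. Probe sets of 1 gene share the same RNA and are not replicates of the condition.

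**Figure D2:**
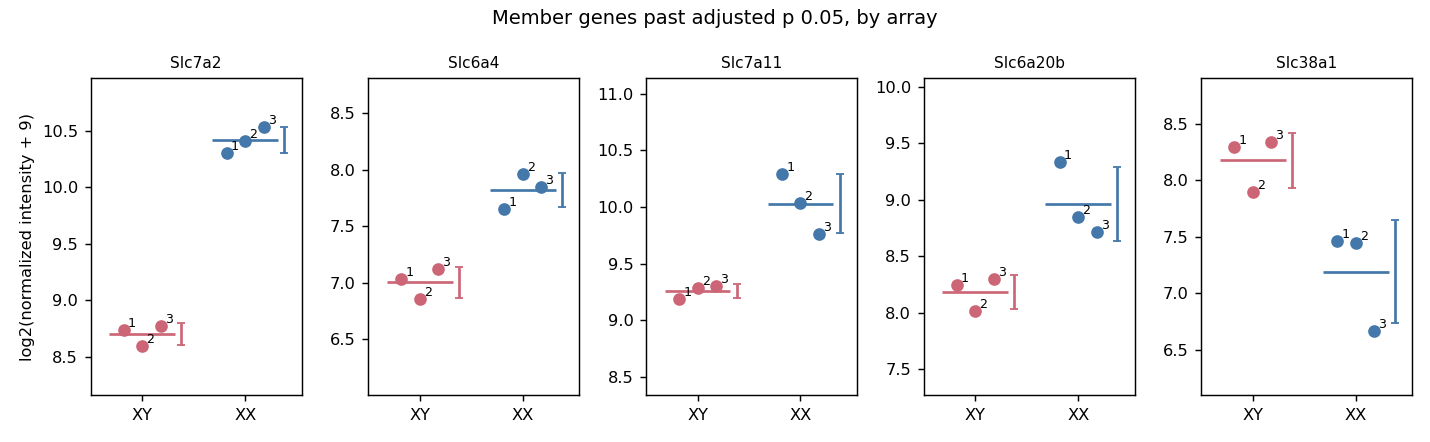
Values of the 5 called member genes on each array (log2 of normalized intensity + 9), XY left of XX, with array numbers, group means as lines and SD as bars; all panels span the same number of log2 units. The XY and XX points do not overlap in any panel, and the gap is widest for Slc7a2.

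The Slc7a2 call held in 19 of 20 alternative settings, with changes of -2.2 to -1.6. The exception was XX 1 alone against the XY arrays, where the change was -1.6 and the adjusted p 0.0705, with a single XX array assumed to vary like the XY arrays. With the Actb ratio as a covariate the change was -1.65 (adjusted p = 0.0332), and without XX 1 it was -1.77 (adjusted p = 0.00425).

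Other carriers of cationic amino acids gave no call. Slc7a1, the widely expressed arginine and lysine carrier, read 10.26, 10.53 and 10.72 in XY and 10.64, 10.22 and 9.89 in XX. The groups overlapped and the change was 0.25 ± 0.23 (adjusted p = 0.478; 95% interval -0.28 to 0.79). Its 3 kept probe sets differed in sign, at 0.25, 0.45 and -0.03. Median scaling turned the change of Slc7a1 to -0.27, and the unscaled deposited values gave -0.11. X-linked Slc7a3, a further cationic carrier, was not kept: its deposited intensity was 112, 36.8 and 20.8 in XY 1, XY 2 and XY 3, against 13.9, 18.7 and 5.05 in XX 1, XX 2 and XX 3. All 3 XY values were higher, with XY 1 far above the other arrays. No fold is given for readings this low.

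Slc7a4, a relative of the cationic carriers, had the largest positive change of the members without passing. Its brightest probe set, of the kind Affymetrix marks as able to match other transcripts, read 7.66, 7.26 and 7.37 in XY, against 7.31, 5.92 and 5.04 in XX. XX 1 lay within the XY range and XX 2 and XX 3 below it. The change was 1.34 ± 0.52 (adjusted p = 0.124), and the other kept probe set of the gene changed by 0.39 ± 0.17. Without XX 1, limma called Slc7a4, at 1.95 (adjusted p = 0.0104), and without XX 3 its change was 0.81.

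Heteromeric carriers pair a heavy chain with a light chain that forms the transport path. The heavy chain Slc3a2 (CD98) serves most light chains. It read 11.34, 11.14 and 11.17 in XY, against 10.72, 10.74 and 10.93 in XX, with no overlap. The change of 0.42 ± 0.15 did not pass (adjusted p = 0.0989) and became -0.11 with median scaling. Slc3a1, the heavy chain of the cystine and dibasic amino acid carrier, read 5.59, 6.16 and 6.03 in XY and 5.74, 5.92 and 5.24 in XX, with overlap and a change of 0.30 ± 0.24.

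Among the light chains, Slc7a11 (chromosome 3) was lower in XY. It encodes xCT, which imports cystine in exchange for glutamate and so feeds the synthesis of glutathione. It read 9.18, 9.28 and 9.30 in XY, against 10.29, 10.04 and 9.77 in XX. The XX arrays were more spread than the XY arrays, and all lay above them, with XX 1 the highest. The change was -0.77 ± 0.17 (adjusted p = 0.0316). The other kept probe set read 7.59, 7.21 and 7.63 in XY, against 7.75, 8.30 and 8.67 in XX, and changed by -0.76 ± 0.26 (adjusted p = 0.0969 among probe sets).

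XX 1 was thus the highest XX array for 1 Slc7a11 probe set and the lowest for the other. Leaving out XX 2 or any single XY array ended the call, with adjusted p of 0.0908 or more. It was also lost with no filter (limma's adjusted p = 0.0659), with the replicate number as a block (0.0815) and with the Actb covariate (0.0734). With XX 1 alone against the XY arrays the change was -1.03. The change stayed between -1.27 and -0.64 in the 20 alternatives.

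The promoter window of Slc7a11 is shown because it holds the element through which amino acid shortage is known to act on the gene. RefSeq's windows of 300 bases, most of each lying before the start of the gene, matched 26 of the 37 tested members and 3 of the 5 called ones. Capitals mark matches, on either strand, to TGATGNAA, the core of the C/EBP-ATF response element that ATF4 binds under amino acid limitation. TAATTG, the element of the oocyte factor NOBOX, and TATAAA, the TATA box, were searched on both strands too. The window of Slc7a11 (GRCm38.p6, chr3:50443564-50443863, minus strand) reads, 5′ to 3′:

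Slc7a11: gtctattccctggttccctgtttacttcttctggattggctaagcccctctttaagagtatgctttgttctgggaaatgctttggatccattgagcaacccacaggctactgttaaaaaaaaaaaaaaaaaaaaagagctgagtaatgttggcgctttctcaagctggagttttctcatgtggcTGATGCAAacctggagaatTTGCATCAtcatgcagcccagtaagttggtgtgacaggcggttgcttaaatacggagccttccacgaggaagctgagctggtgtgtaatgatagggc

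It holds 2 matches to TGATGNAA in opposite orientations, TGATGCAA starting 66 bases before the gene's start and TTGCATCA starting 47 bases before it, which do not overlap. At least 1 match is present in 3.97% of all 32851 windows and 2 or more in 0.07%. Of the 36 windows of tested members, 4 have a match. Counted by gene, where a gene can have several windows, 3 of 26 have a match, Slc7a11, Slc1a4 and Slc7a7. The windows of Slc6a4 (GRCm38.p6, chr11:76998347-76998646, plus strand) and Slc6a20b (GRCm38.p6, chr9:123632489-123632788, minus strand), shown because these genes were also lower in XY, hold no match to any of the 3 motifs. TAATTG is present in 8% and TATAAA in 13.6% of all windows. A match describes letters in the window and does not show binding.

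Slc6a4: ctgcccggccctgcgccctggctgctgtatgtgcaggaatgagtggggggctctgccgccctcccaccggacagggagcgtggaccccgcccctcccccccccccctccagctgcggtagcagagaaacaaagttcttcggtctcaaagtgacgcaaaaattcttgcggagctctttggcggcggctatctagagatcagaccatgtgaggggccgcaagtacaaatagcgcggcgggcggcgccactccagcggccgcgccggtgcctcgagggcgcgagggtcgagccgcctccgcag
Slc6a20b: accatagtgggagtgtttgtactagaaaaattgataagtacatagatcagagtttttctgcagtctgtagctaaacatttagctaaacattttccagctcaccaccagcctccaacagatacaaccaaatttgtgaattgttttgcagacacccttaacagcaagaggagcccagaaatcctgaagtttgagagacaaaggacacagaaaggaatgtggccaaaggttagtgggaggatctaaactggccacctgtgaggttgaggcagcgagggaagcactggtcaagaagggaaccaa

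The other light chains did not pass. Slc7a5, the exchanger of large neutral amino acids known as LAT1, read 7.25, 6.85 and 7.24 in XY and 7.25, 8.03 and 7.84 in XX. XX 1 lay beside the XY arrays, only just above the highest of them, and the change was -0.59 ± 0.24 (adjusted p = 0.135). Without XX 1, Slc7a5 was called lower, at -0.82 (adjusted p = 0.0257). Slc7a7, which exports cationic for neutral amino acids, read 7.61, 7.69 and 7.41 in XY, against 7.27, 7.16 and 6.91 in XX, without overlap and with a change of 0.46 ± 0.17 (adjusted p = 0.107). Its relative Slc7a6 changed by 0.04, the neutral amino acid exchanger Slc7a8 by -0.03, the cystine light chain Slc7a9 by -0.02 and the acidic amino acid light chain Slc7a13 by -0.19, with overlapping groups in each. For Slc7a9 the 95% interval was -0.40 to 0.36. Slc7a6os, the neighbour of Slc7a6 that is not a carrier, changed by 0.39 ± 0.18 (adjusted p = 0.177) and by -0.16 with median scaling.

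**Figure D3:**
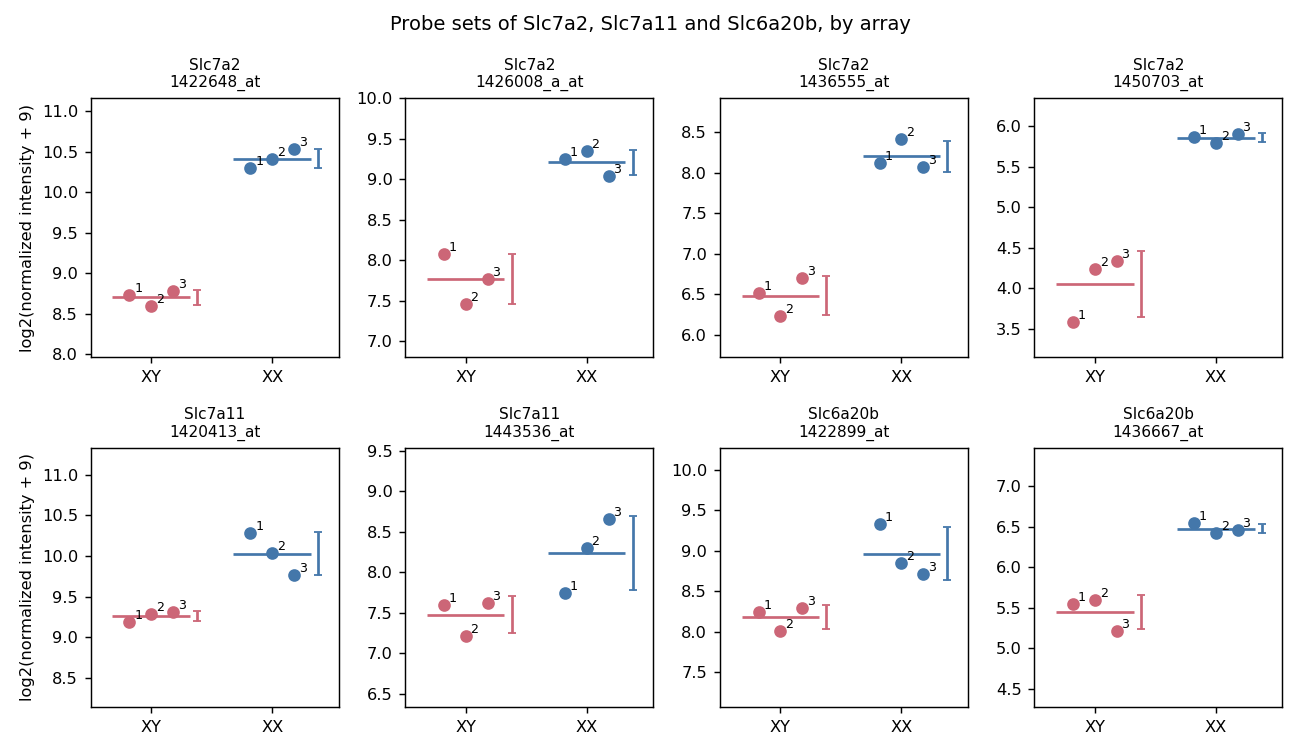
Values of the 8 kept probe sets of Slc7a2, Slc7a11 and Slc6a20b on each array (log2 of normalized intensity + 9), XY left of XX, with means as lines and SD as bars; all panels span the same number of log2 units. In all 8 panels the XY arrays lie below the XX arrays. The dimmest Slc7a2 probe set was kept through the XX arrays alone, so that its panel had to show this. In the second Slc7a11 panel XX 1 is nearest to XY.

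In the Slc38a family of glutamine and small neutral amino acid carriers, Slc38a1 (chromosome 15), a sodium-coupled glutamine importer of the plasma membrane, was higher in XY. It read 8.30, 7.90 and 8.34 in XY, against 7.46, 7.45 and 6.67 in XX. The groups did not overlap, and XX 3 lay well below XX 1 and XX 2. The change was 0.99 ± 0.26 (adjusted p = 0.0473), close to the threshold. The call was lost without any 1 of XX 2, XX 3, XY 1, XY 2 or XY 3 (adjusted p from 0.0781 to 0.134). Without scaling of the deposited intensities limma's adjusted p was 0.119. The call was also lost with median scaling (0.131), an added value of 1 (0.0613) and no filter (0.0860). So it was with the replicate number as a block (0.0914) and the Actb covariate (0.295). With XX 1 alone against the XY arrays the change was 0.71. The change was positive in all 20 alternatives, from 0.65 to 1.13.

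Slc38a9, an arginine sensor of the lysosome that signals to the growth kinase mTOR, read 11.76, 11.70 and 11.75 in XY, against 11.56, 10.83 and 10.52 in XX. XX 1 lay nearer to XY than to XX 2 and XX 3. The change was 0.77 ± 0.26 (adjusted p = 0.0932), and without XX 1 limma called it. Its 5 kept probe sets differed in sign, from -0.19 to 0.77. The brightest is again of the kind marked as able to match other transcripts.

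Slc38a7, a lysosomal glutamine carrier, was the only Slc38a member with a negative change, at -0.48 ± 0.16 (adjusted p = 0.0834), reading 8.03, 8.21 and 8.04 in XY against 8.71, 8.38 and 8.61 in XX without overlap. Slc38a10 read 9.17, 9.38 and 9.76 in XY and 9.56, 8.48 and 8.21 in XX, and XX 1 lay within the XY range. It changed by 0.68 ± 0.36 (adjusted p = 0.226), and its 6 kept probe sets went from -0.80 to 0.85. Without XX 1 it was called, at 1.09 (adjusted p = 0.0196), and without XX 3 its change was 0.42. Slc38a6 (0.44 ± 0.23) and Slc38a2 (0.34 ± 0.25), the member best known for its rise under amino acid starvation, had overlapping groups. Slc38a3, which mouse granulosa cells express to take up amino acids that they pass to the oocyte, read 6.12, 4.84 and 5.57 in XY and 5.48, 5.44 and 4.95 in XX, with a change of 0.22 ± 0.33. The 2 tested genes of the proton-coupled Slc36a family were Slc36a1 and Slc36a3. Slc36a1, a carrier of the lysosome, changed by -0.05 ± 0.19. Slc36a3, named here by its symbol only, changed by -0.49 ± 0.34, with XY 1 (6.15) above the other XY arrays (4.98 and 4.91).

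In the Slc6a family, the carrier of greatest known importance in the oocyte is Slc6a9, the glycine transporter GLYT1. It read 10.33, 11.11 and 11.11 in XY and 10.39, 11.20 and 10.88 in XX. XY 1 and XX 1 were the low arrays of their groups, and the groups overlapped. The change was 0.03 ± 0.29 (adjusted p = 0.955), and the 95% interval of -0.65 to 0.71 does not exclude a change in either direction. The other kept probe set changed by -0.02 ± 0.21. The sign depended on the scaling: the change was -0.50 with median scaling, -0.03 with trimmed mean scaling and -0.34 in the unscaled deposited values.

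Proline and betaine carriers share a branch of the family with the neutral amino acid carriers. Slc6a20b (chromosome 9) was lower in XY, reading 8.24, 8.01 and 8.30 in XY against 9.33, 8.84 and 8.71 in XX. The groups did not overlap and XX 1 was the highest. The change was -0.78 ± 0.20 (adjusted p = 0.0472), and a dimmer probe set changed by -1.03 ± 0.17 (adjusted p = 0.0153 among probe sets, where the first had 0.0535). Leaving out any single array other than XX 1 ended the call, with adjusted p of 0.0702 to 0.145. It was also lost with an added value of 1 (limma's adjusted p = 0.0577), with no filter (0.0885) and with the replicate number as a block (0.0825). With the Actb covariate the call held, at -1.15 (adjusted p = 0.0484). With XX 1 alone against the XY arrays the change was also -1.15.

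Its neighbour on chromosome 9, Slc6a20a, encodes the proline and betaine carrier SIT1, known from mouse embryos. It read 8.82, 8.56 and 8.73 in XY and 8.36, 9.43 and 9.15 in XX, so that XX 1 lay below all XY arrays and the groups overlapped. The change was -0.28 ± 0.28 (adjusted p = 0.523), and without XX 1 limma called it lower in XY. The 2 genes are close relatives, and signal shared between their probes was not tested. Slc6a7, a proline carrier described in brain, changed by -0.30 ± 0.17, reading 9.79, 10.02 and 10.23 in XY against 10.35, 10.20 and 10.39 in XX.

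Slc6a6 imports taurine, another osmolyte. It read 9.83, 9.87 and 10.02 in XY and 9.90, 10.69 and 10.04 in XX, with a change of -0.30 ± 0.23 (adjusted p = 0.393). XX 2 was the highest array, and without it the change was -0.06. A dimmer probe set, at 6.82, 6.17 and 6.93 in XY against 7.30, 7.58 and 7.39 in XX, changed by -0.78 ± 0.23 without overlap (adjusted p = 0.0700 among probe sets), and the remaining kept one changed by 0.51. The neutral amino acid carriers Slc6a15 (-0.15 ± 0.16), Slc6a17 (0.12 ± 0.20) and Slc6a19 (0.46 ± 0.38) had overlapping groups.

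The monoamine carriers of the family do not move amino acids. Slc6a4 (chromosome 11), the serotonin transporter, was lower in XY, reading 7.03, 6.85 and 7.12 in XY against 7.65, 7.96 and 7.84 in XX. The groups did not overlap, and the change was -0.82 ± 0.16 (adjusted p = 0.0199). Leaving out any single array other than XX 1 raised the adjusted p to between 0.058 and 0.0796. The call was also lost with the deposited values (limma's adjusted p = 0.0651), with the replicate number as a block (0.0667) and with the Actb covariate (0.124). With XX 1 alone against the XY arrays the change was -0.65. The dopamine transporter Slc6a3 read 5.41, 5.86 and 5.45 in XY, against 4.95, 4.73 and 5.16 in XX, and did not pass (0.63 ± 0.19, adjusted p = 0.0708). Slc6a3 was kept through the XY arrays alone, so that its groups had to differ. The noradrenaline transporter Slc6a2 changed by 0.16 ± 0.19.

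The glutamate and neutral amino acid family Slc1a had 2 of 7 genes tested. Slc1a1, a carrier of glutamate and aspartate, read 6.01, 6.39 and 6.25 in XY, against 7.02, 6.88 and 6.42 in XX, without overlap, and changed by -0.56 ± 0.20 (adjusted p = 0.110). The neutral exchanger Slc1a4 changed by 0.58 ± 0.47, with XX 2 (3.90) far below XX 1 and XX 3 (5.59 and 5.64). In Slc43a, the large neutral amino acid carrier Slc43a1 changed by 0.29 ± 0.31. Slc43a3, reported to carry purine bases and no amino acid, read 8.51, 8.98 and 8.76 in XY and 8.18, 8.32 and 8.56 in XX. It changed by 0.40 ± 0.18 (adjusted p = 0.180) and by -0.05 with median scaling.

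The remaining 26 gene symbols, with Slc6a19os and Slc36a1os among them, had no probe set that reached the array's median on 3 arrays. Their deposited intensities ran from 0.888 to 46.1 in Slc1a (5 genes, among them the glutamine carrier Slc1a5 and the glial glutamate carriers Slc1a2 and Slc1a3) and from 0.857 to 38.2 in Slc6a (10 symbols, with the glycine carrier Slc6a5 and the GABA carriers Slc6a11 to Slc6a13). They ran from 0.898 to 112 in Slc7a (5 genes), from 1.33 to 34.1 in Slc36a (3 symbols), from 0.865 to 21.0 in Slc38a (Slc38a4 and Slc38a5) and from 0.642 to 42.4 for Slc43a2. A value below the filter is a low reading of these probes and does not show that the transcript is absent.

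All 4 X-linked members, Slc7a3 among them, fell in this group and were not tested. One probe set of the creatine carrier Slc6a8 had deposited intensities of 30.4, 32.8 and 27.9 in XY and 7.96, 5.51 and 28.5 in XX. Its other probe set had 19.1, 3.92 and 26.7 in XY and 11.3, 22.5 and 32.7 in XX, so that the 2 differed in direction. Slc38a5 read 17.7, 21.0 and 3.93 in XY and 7.45, 6.67 and 2.73 in XX. Slc6a14, a broad importer of neutral and cationic amino acids, read 12.8, 15.6 and 14.9 in XY, against 3.60, 4.70 and 2.01 in XX, and its other probe set read 2.88, 15.7 and 5.71 in XY, against 0.857, 1.07 and 1.17 in XX. With no filter, limma called Slc6a14 higher in XY, at readings that lie below the array's median on all 6 arrays.

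**Figure D4:**
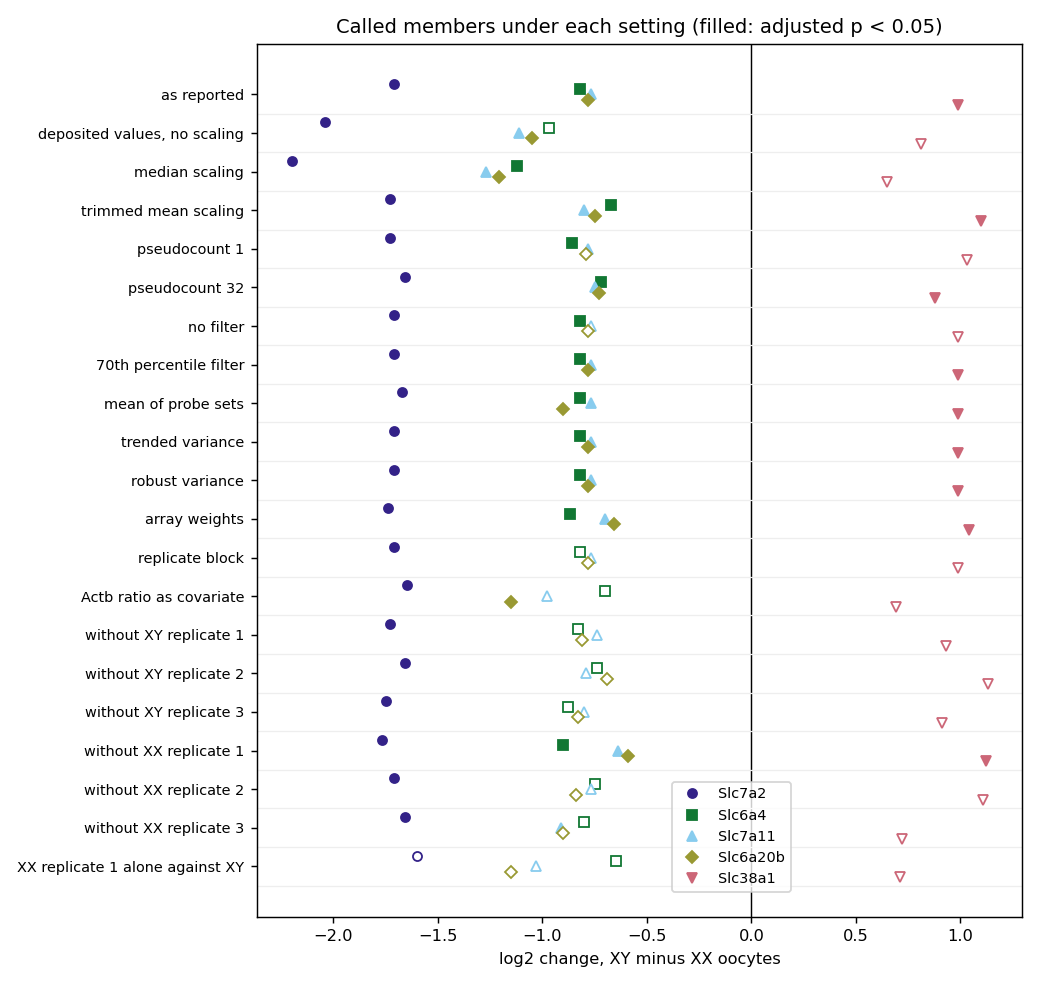
Change of the 5 called member genes (XY minus XX, log2) under the reported setting and 20 alternatives; filled symbols have an adjusted p below 0.05. All 5 keep their direction, Slc7a2 is filled in 20 of 21 settings, and Slc38a1 is filled least often.

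Genes that use, sense or sort amino acids were read from 10 fixed lists, without the members themselves. Of 155 tested genes, 21 were higher and 7 lower in XY, beside 7.86% and 5.34% of all genes, and their median change was 0.15 beside 0.07 for all genes. Among other amino acid and peptide carriers, 2 of 10 were higher and 1 lower. The peptide importer Slc15a2 read 11.45, 11.51 and 11.56 in XY, against 10.38, 9.86 and 9.92 in XX (1.45 ± 0.18, adjusted p = 0.00624). The lysosomal sialic acid and acidic amino acid carrier Slc17a5 was higher by 1.44 ± 0.27. The lysosomal exporter of cationic amino acids Slc66a1 was lower, at -0.85 ± 0.22.

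Among genes of glutathione, cysteine and taurine, 3 of 15 were higher and 0 lower. The first step of glutathione synthesis did not pass: its catalytic subunit Gclc changed by -0.33 ± 0.16 and its modifier Gclm by 0.07 ± 0.18. Chac2, which degrades glutathione, was higher by 0.93 ± 0.24. The peroxidase Gpx1 read 9.73, 9.81 and 9.69 in XY, against 7.67, 6.33 and 6.96 in XX (2.76 ± 0.32, adjusted p = 0.00513), and Gpx4, which clears lipid peroxides, was higher by 1.17 ± 0.17. Among genes of glutamine, glutamate, aspartate and proline, 2 of 19 were higher and 0 lower. Glutamine synthetase, Glul, read 8.69, 9.07 and 8.95 in XY, against 7.45, 7.51 and 7.14 in XX (1.54 ± 0.18, adjusted p = 0.00510). Ornithine aminotransferase, Oat, was higher by 1.36 ± 0.14, while ornithine decarboxylase, Odc1, changed by -0.17 ± 0.18 and arginase 2, Arg2, by -0.09 ± 0.28.

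Breakdown of branched-chain amino acids had the most calls, 5 of 16 higher and 1 lower, with a median change of 0.46. Dbt, a subunit of the branched-chain dehydrogenase (1.08 ± 0.19), Mccc1 of leucine breakdown (0.87 ± 0.20) and Pcca of propionate use (0.80 ± 0.20) were higher. Bckdk, the kinase that shuts the dehydrogenase off, was lower (-0.64 ± 0.16). In glycine cleavage and one-carbon metabolism 1 of 16 was higher, the glycine cleavage protein gene Gcsh (1.15 ± 0.18), and 1 was lower, Shmt1 (-0.56 ± 0.14). In creatine metabolism, with 3 tested genes, the synthetic enzyme Gamt was higher (1.14 ± 0.24) and the kinase Ckb lower (-1.11 ± 0.16).

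Amino acid sensing through mTORC1 had 3 of 31 higher and 1 lower. Sesn1, of the leucine-sensing sestrins (1.15 ± 0.14), Fnip2, a partner of folliculin (1.34 ± 0.16), and Eif4ebp1, the translational repressor that mTORC1 inactivates (1.08 ± 0.19), were higher, and Seh1l was lower (-0.81 ± 0.17). In the starvation response 1 of 13 was higher and 1 lower, Vldlr (1.56 ± 0.31) and Cebpb (-1.18 ± 0.29). The transcription factor Atf4 read 12.05, 11.83 and 11.99 in XY and 12.23, 11.80 and 11.55 in XX, with a change of 0.10 ± 0.20. The sensor kinase Eif2ak4 changed by -0.22 ± 0.23, and the ATF4 target Trib3 by 0.49 ± 0.23. The ATF4 targets Asns and Chac1, counted in the glutamine and glutathione lists, changed by 0.70 ± 0.40 and 0.52 ± 0.33. None of these 5, which were chosen after their values were seen, passed.

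Among the cytosolic aminoacyl-tRNA synthetases 1 of 21 was higher, the alanine enzyme Aars (0.62 ± 0.13), and 0 were lower. Among genes of transporter turnover and trafficking 2 of 12 were higher and 1 lower. Nedd4l, a ubiquitin ligase that removes membrane transporters, read 11.05, 10.81 and 10.57 in XY, against 11.45, 11.59 and 11.64 in XX (-0.75 ± 0.17, adjusted p = 0.0330). Its relative Nedd4 was higher (0.71 ± 0.14), as was the membrane-cytoskeleton linker Ezr (0.94 ± 0.23). The number of calls in these lists, 28 in all, was 9 without XY 2, 10 without XX 3, 11 without XY 1, 12 without XX 2 or XY 3, and 37 without XX 1. The Actb covariate left 5, and the unscaled deposited values gave 13.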

How the data were processed

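Per the labels, RNA of 10 oocytes per array went through 2-cycle 3′ labelling onto an Affymetrix array. The authors deposited a linear intensity for every probe set of each array; the submitters' processing notes name MAS5 and no other tool, and no detection calls were used. Trimmed means differed between arrays (194 to 332), so the 6 arrays were quantile-normalized, which hides a change in total mRNA. Of 45037 probe sets that are not controls, 34945 had 1 symbol, and 34741 of these matched RefSeq (GRCm38.p6) by gene ID. Values were log2(intensity + 9), 9 being the 25th percentile. The brightest kept probe set stood for its gene. XY was compared with XX by limma 3.58.1 in R 4.3.3 (lmFit, eBayes, Benjamini-Hochberg over 12442 genes). With 3 arrays per group, their number limits precision. The steps were tested on simulated data. Replicate numbers are not known to pair the arrays. Between arrays of the same number the correlations of deviations were -0.10, 0.00 and -0.04, which with 3 arrays per group cannot exclude pairing.

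Members, lists and rules were chosen with earlier results of these data known. Named with array values were the members past the threshold, those with the smallest p up to 20 in all, Slc3a1, Slc3a2, Slc6a9, Slc38a3, X-linked members and those with probe sets of opposite sign, and up to 4 called genes per list. Array values of Slc6a20a and of Slc1a4, and the uncalled list genes Gclc, Gclm, Odc1, Arg2, Atf4, Eif2ak4, Asns, Trib3 and Chac1, were chosen after their values were seen.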

Additional observations from a re-analysis of the deposited data

How the results depend on the processing

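With 3 arrays per group, the number of calls moved with most settings, and 1 array decided many of them. The 4 lower and 1 higher member genes, 7 member probe sets and 28 list genes are the reported counts. The 7 member probe sets, of 58 kept, stand beside 11.5% of all kept probe sets with 1 symbol. They include the dimmest Slc7a2 probe set, which was kept through the XX arrays alone and had to differ. Member genes higher in XY were 0 with the deposited values, median scaling or an added value of 1. They were also 0 with the Actb covariate and at an adjusted p of 0.01. In these settings, in that order, 10, 13, 13, 8 and 13 members had an unadjusted limma p under 0.05, counted in either direction. Member genes higher in XY were 2 with trimmed mean scaling, 3 with a trended variance, 5 with array weights and 4 at an adjusted p of 0.1. Member genes lower in XY were 2 with no filter or the Actb covariate and 1 at an adjusted p of 0.01. Member probe sets past the threshold were 12 with median scaling or a trended variance, 16 with array weights, 0 with the Actb covariate (12 at an unadjusted p under 0.05), 3 at an adjusted p of 0.01 and 13 at 0.1. List genes were 13 with the deposited values, 14 with no filter, 5 with the Actb covariate and 8 at an adjusted p of 0.01. Leaving out each array in turn gave 0 to 4 higher and 1 to 6 lower member genes, 4 to 14 member probe sets and 9 to 37 list genes. XX 1 alone against XY gave 0 for all 4 counts, where 9 member genes, 15 member probe sets and 43 list genes had an unadjusted p under 0.05. The replicate block left 0 higher and 1 lower member gene, 4 member probe sets and 16 list genes; the numbers are not known to pair the arrays. Some of these fits have fewer arrays, and the cause of each move was not tested.

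The median change of all genes was 0.07 as reported, -0.12 with the deposited values, -0.27 with median scaling and 0.18 with trimmed mean scaling. Relative to it, Slc7a2 ran from -1.92 to -1.78 over these 4 scalings, Slc6a20b from -0.94 to -0.85 and Slc38a1 from 0.92 to 0.93. The direction of all 5 called members was kept in every alternative run. Among the members named with array values, these signs turned, all of members that did not pass, while members outside that rule were not followed one by one: Slc6a9 with the deposited values (-0.34), median scaling (-0.50), trimmed mean scaling (-0.03), array weights (-0.13) and without XY 2 (-0.10), XY 3 (-0.10) or XX 1 (-0.19); Slc7a1 with the deposited values (-0.11), median scaling (-0.27), the Actb covariate (-0.04) and XX 1 alone (-0.13). With median scaling Slc3a2 (-0.11), Slc7a6os (-0.16) and Slc43a3 (-0.05) also turned. So did Slc38a10 (-0.0048), Slc38a3 (-0.19) and Slc6a6 (0.0007) with the Actb covariate, Slc38a10 (-0.13) and Slc6a6 (0.0052) with XX 1 alone, and Slc38a3 without XY 1 (-0.08). Over the 6 fits that leave out an array, Slc6a9 ran from -0.19 to 0.29 and Slc38a3 from -0.08 to 0.56.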
